A study of Mus musculus with 21 samples.

Results

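The Kcnh8 end of the Satb1 locus is the stretch of mouse chromosome 17 from 52740000 to 52997000 (mm9), beyond the gene desert on the higher-coordinate side of Satb1. It was chosen by position alone, as all positions from 52740000 up to the last filled one. It holds 258 of the 1296 filled positions in each of 7 libraries, spaced 1000 bp apart. In 4C-seq, chromatin is fixed, cut and ligated, and the fragments joined to 1 chosen fragment, the viewpoint, are amplified and sequenced, so that the signal at a position reflects how often it met the viewpoint. Of the 21 libraries of the series, 7 looked out from the Satb1 locus and were used here.

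The Satb1 promoter was the viewpoint in adult thymus, in embryonic stem (ES) cells and in fetal brain, cut with NlaIII and then DpnII. A viewpoint labelled -470 kb was profiled in adult thymus and ES cells with DpnII and Csp6I. A viewpoint labelled +1.5 kb (NlaIII and Csp6I) and one labelled -6 kb (DpnII and Csp6I) were profiled in adult thymus. Thymus and brain came from C57BL/6 mice and the ES cells were the IB10/E14 line, grown in culture, so strain and culture differ together with the cell type in each comparison with ES cells. A thymus preparation came from the equivalent of 1 adult animal, and a brain preparation from the equivalent of 4 pooled brains at 14.5 days post coitum. These amounts are given per volume, not as a number of animals per library. Age and tissue differ together between thymus and brain. All cells were fixed with 2% formaldehyde for 10 minutes. Each group was 1 library, which leaves no replicate error to test against, and no p-value is given. The tissue labels could not be checked against marker genes, since 4C-seq reads no RNA.

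Satb1 is a chromatin organizer that is highly expressed in thymocytes, and genes of this kind are often controlled by distant elements in the deserts around them. Kcnh8 encodes a voltage-gated potassium channel of the ELK family, known mainly from the nervous system. The RefSeq gene table of a later build, GRCm38.p6, lists 5 genes between Satb1 and Kcnh8, of which 4 are long noncoding RNAs and 1 is a pseudogene. The last of them before Kcnh8 is the noncoding Gm27217, and the first gene after Kcnh8 is the pseudogene Gm9210. The table's coordinates were not carried over to mm9, so which positions of the stretch lie within Kcnh8 was not determined here.

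The bases before the annotated start of Kcnh8 are shown because 4C-seq reads the ends of fragments, which lie at restriction sites. A window without a site can still lie within a fragment that is read. The 250 bases (RefSeq, GRCm38.p6, chr17:52602459-52602708, plus strand) are printed with the restriction site in capitals.
Kcnh8 upstream sequence: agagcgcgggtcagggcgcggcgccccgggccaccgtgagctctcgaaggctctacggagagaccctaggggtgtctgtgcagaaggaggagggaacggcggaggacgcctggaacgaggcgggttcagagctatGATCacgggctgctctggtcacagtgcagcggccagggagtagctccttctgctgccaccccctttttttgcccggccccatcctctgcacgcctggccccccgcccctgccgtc
This window held 1 site of DpnII (GATC), starting at base 136, and none of NlaIII (CATG) or Csp6I (GTAC). These sites are palindromes, so both strands read alike, and none overlaps another. Among 32851 RefSeq windows of the same length, 41.9% held a DpnII site, 53.9% an NlaIII site and 31.5% a Csp6I site. G and C made up 68.4% of the Kcnh8 window, against a median of 52.4% over all windows. The sequence could not be placed on the mm9 signal, so it says nothing of the contacts of that promoter.

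The Kcnh8 end lay below the mean of its library from every Satb1 viewpoint. Signals are given as relative signal, the value smoothed over 5 kb divided by the mean of the same library beyond 10 kb from its viewpoint. From the Satb1 promoter, the stretch averaged 0.152 in thymus, 0.0885 in ES cells and 0.171 in fetal brain. From the -470 kb viewpoint it averaged 0.0531 in thymus and 0.124 in ES cells. The thymus libraries of the +1.5 kb and -6 kb viewpoints averaged 0.0824 and 0.0772. The stretch thus lay between 5.86-fold and 18.8-fold below the mean of its library, in the promoter library of brain and the -470 kb library of thymus. How low it lay depended on the scale. With medians in place of means the promoter libraries read 0.662 in thymus, 0.847 in ES cells and 0.289 in fetal brain, and relative to the desert before the stretch 0.395, 0.826 and 0.324, so that from the promoter in ES cells the stretch came close to either scale. From -470 kb the medians gave 0.109 in thymus and 0.291 in ES cells, and the +1.5 kb library read 0.479. In bulk cells, a contact in few cells and a weak contact in many cannot be told apart.

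Smoothed over 5 kb, not 1 of the 258 positions reached the library mean in any of the 7 libraries, while 27.1% to 50.7% of the positions outside the stretch did. With a 2 kb window, 52.872 Mb read 1.72 from -470 kb in ES cells. The Kcnh8 end held 20.2% of the positions beyond 10 kb but 1.08% to 3.45% of the signal. In 5 of the 7 libraries no other run of 258 positions clear of the viewpoint was lower, out of 761 such overlapping runs. The exceptions were both ES libraries, where 63 runs were lower from the promoter and 67 from the -470 kb viewpoint. The stretch is also the farthest from the promoter-side viewpoints, 763 to 1027 kb away, and lies 320 to 577 kb from the -470 kb viewpoint, so distance and place cannot be told apart in these runs.

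**Figure D1:**
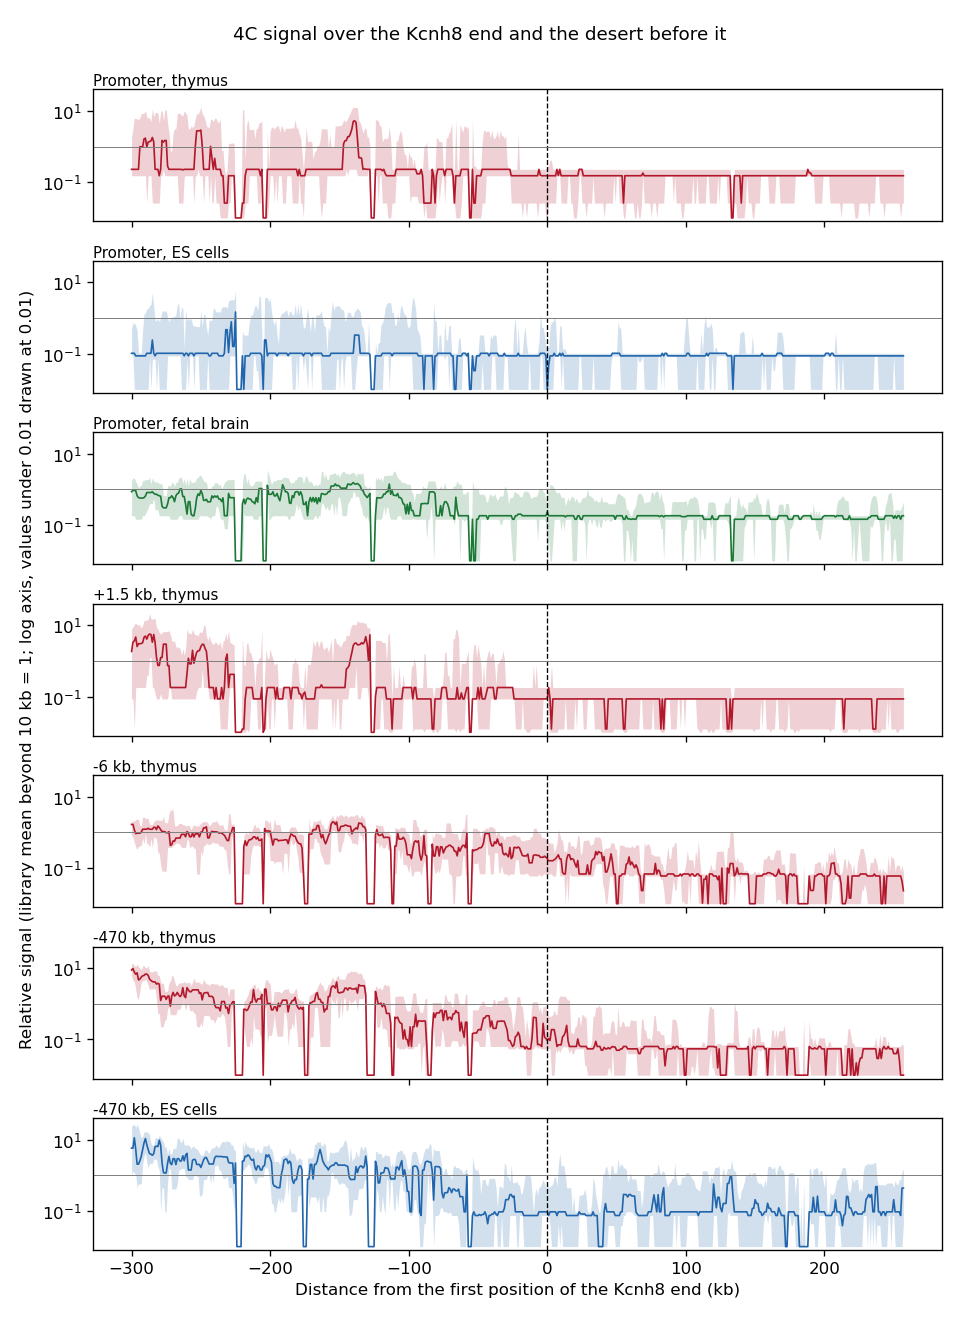
Relative signal (log axis, library mean beyond 10 kb = 1) against distance in kb from the first position of the Kcnh8 end (dashed line) for each of the 7 libraries, with the line showing the middle value of the 5 kb window and the band its lower and higher values. The horizontal line marks the library mean, which no middle value of the Kcnh8 end reached in any library.

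The middle value stands between a lower and a higher value that the authors deposited for each window. Both are given here relative to the library mean of the middle value. For the promoter these averaged 0.0526 and 0.230 in thymus, 0.0296 and 0.164 in ES cells, and 0.0998 and 0.420 in brain. From the -470 kb viewpoint they averaged 0.0112 and 0.227 in thymus and 0.0246 and 0.945 in ES cells. The higher values of the -470 kb library of ES cells thus came close to its mean, and those of the other 6 libraries stayed at 0.420 or less. For the +1.5 kb and -6 kb viewpoints the lower values were 0.0221 and 0.0275, and the higher ones 0.181 and 0.259.

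Ordered by level, the libraries ran from the promoter in brain (0.171) and in thymus (0.152) through the -470 kb viewpoint in ES cells (0.124), the promoter in ES cells (0.0885), +1.5 kb (0.0824) and -6 kb (0.0772) to the -470 kb viewpoint in thymus (0.0531). With no replicates, the yardstick was the SD of log2 level over the 3 neighbouring thymus viewpoints (promoter, +1.5 kb and -6 kb), which view the stretch from nearly equal distances. It came to 0.54 and covers differences of enzyme, fragment and library together, not animals. It describes single levels, not differences. Between 2 of these thymus libraries the log2 difference reached 0.89 (promoter over +1.5 kb) and 0.98 (promoter over -6 kb). No library differed from its neighbour in this order by more than that SD, and the 2 ends of the order differed by 3.21-fold. The last step, 0.539 from -6 kb to -470 kb in thymus, nearly equalled the SD of 0.542. Sorting itself keeps neighbours close, so the small steps do not show that the libraries were alike.

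Much of the Kcnh8 end was flat at 1 recurring value per library. In thymus from the promoter, 244 of 258 positions (94.6%) held the same value, a relative signal of 0.152, and the stretch had 8 distinct values. In ES cells 84.1% of positions held 0.0870, with 4 distinct values, and in brain 64.3% held 0.184, with 18. The +1.5 kb library had 94.2% of positions at 0.0860 and 3 distinct values. The level of these 4 libraries in the stretch is therefore close to the recurring value itself, which has no order between positions. Outside the Kcnh8 end the same values took 18.5% (thymus), 10.5% (ES cells) and 8.26% (brain) of positions for the promoter, and 24.2% for +1.5 kb.

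Libraries cut first with DpnII were less flat. The share at the commonest value was 45.3% and 46.1% for the -470 kb viewpoint in thymus and ES cells and 29.5% for -6 kb, with 38, 45 and 68 distinct values. Outside the stretch the same values took 2.26%, 16.0% and 0.393% of positions. The 4 libraries cut first with NlaIII had 3 to 18 distinct values and did not overlap the 3 others, which had 38 to 68. The contrast is seen within thymus at nearly the same distance, with 68 distinct values from -6 kb against 8 from the promoter and 3 from +1.5 kb. First enzyme and viewpoint fragment cannot be told apart in this contrast, and the number of reads is unknown.

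**Figure D2:**
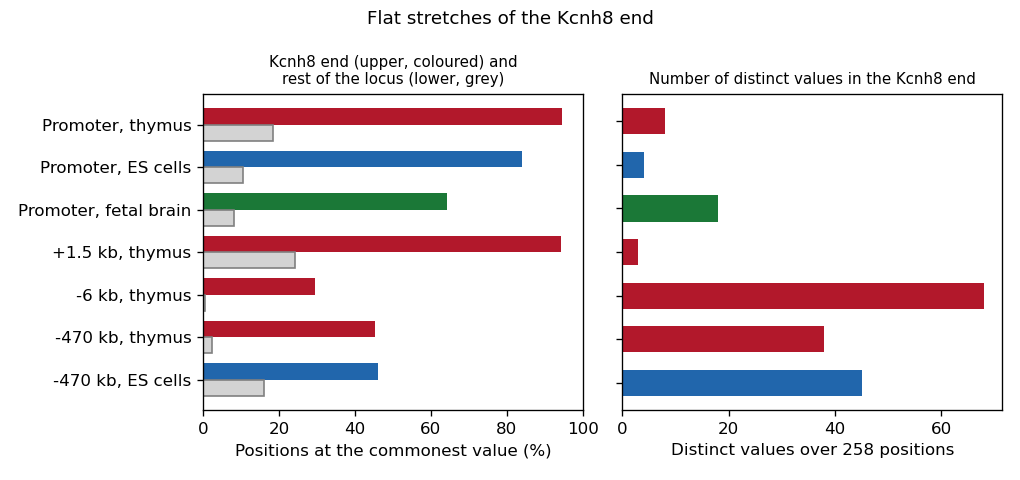
Left, the percentage of positions at the commonest value of the Kcnh8 end, in the Kcnh8 end (coloured) and in the rest of the locus (grey); right, the number of distinct values over its 258 positions, for the 7 libraries. The 4 libraries cut first with NlaIII have 3 to 18 distinct values and the 3 cut first with DpnII have 38 to 68.

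Positions counted as empty, with a deposited signal under 1e-09, were few. The -470 kb library of thymus was empty at 32 of 258 positions (12.4%), against 6.43% of its positions beyond 10 kb over the whole locus, and no other library was empty at more than 6. The -6 kb library also had positions with a relative signal of 5.02e-08, which lay above that limit and were not counted. Both empty positions of the promoter library of thymus, 52.873 and 52.874 Mb, were also the 2 empty ones in brain, but the promoter library of ES cells, made with the same enzymes, had no empty position and held 0.0870 at 52.873 Mb. Among the libraries made with DpnII and Csp6I, the 6 empty positions of -6 kb, between 52.922 and 52.928 Mb, were all empty from -470 kb in thymus too, and 5 of them were empty from -470 kb in ES cells. No empty position was shared between libraries with different enzymes.

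Along the Kcnh8 end, 2 thymus libraries declined and the others did not. In bins of 50 kb, the -6 kb library fell to 0.0544 in the fifth bin, against 0.153 in the first, a 2.80-fold difference. The -470 kb library of thymus fell to 0.0414, against 0.0824 in the first bin, a 1.99-fold difference. The -470 kb library of ES cells had its lowest full bin first, at 0.0792, and its highest at 100 to 150 kb, at 0.173. From the promoter, full bins stayed between 0.144 and 0.160 in thymus, 0.0864 and 0.0904 in ES cells, and 0.163 and 0.181 in brain, and +1.5 kb stayed between 0.0801 and 0.0860.

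**Figure D3:**
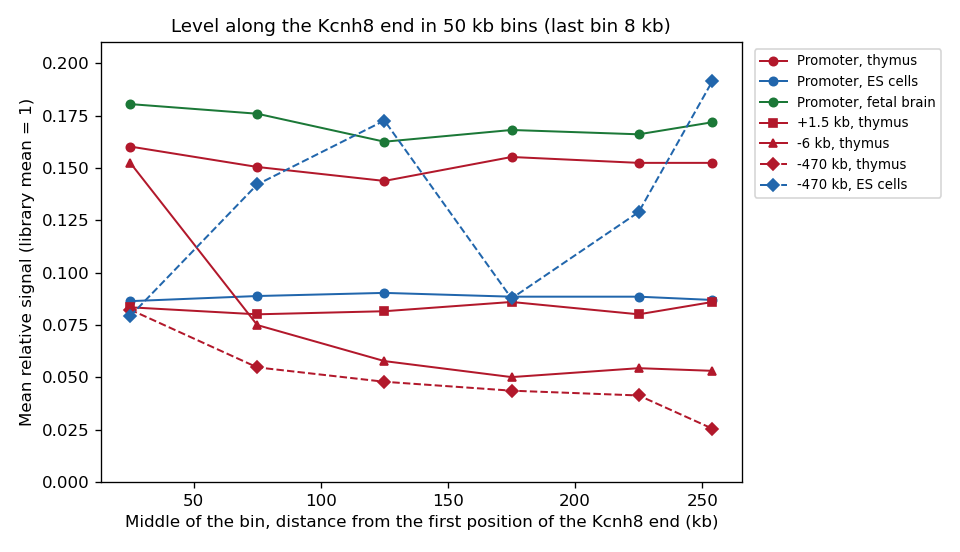
Mean relative signal of the 7 libraries in 50 kb bins along the Kcnh8 end (the last bin has 8 kb), against the distance of the bin's middle from the first position in kb. The -6 kb and -470 kb libraries of thymus have their highest full bin first, the -470 kb library of ES cells varies between 0.0792 and 0.192, and the other 4 are nearly level.

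The first position of the stretch was not itself an edge in the signal. The 5 positions just inside averaged, from the promoter, 0.152 (thymus), 0.0625 (ES cells) and 0.194 (brain), and the 5 just outside 0.154, 0.0995 and 0.184. From -470 kb the inner and outer 5 averaged 0.135 and 0.128 in thymus and 0.0903 and 0.0943 in ES cells, from +1.5 kb 0.0900 and 0.0860, and from -6 kb 0.164 and 0.203. The fall to a low level came earlier, within the desert. The last position at or above the library mean as seen from the promoter lay at 52.603 Mb in thymus, 52.515 Mb in ES cells and 52.626 Mb in brain, 137, 225 and 114 kb before the Kcnh8 end. It lay at 52.622 Mb in thymus and 52.682 Mb in ES cells from -470 kb, at 52.612 Mb from +1.5 kb and at 52.617 Mb from -6 kb. The -470 kb library of ES cells thus kept signal above its mean to within 58 kb of the stretch, the nearest of the 7.

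Against the 100 kb before it, the Kcnh8 end was lower in 6 of 7 libraries, by very unequal amounts. The log2 ratio was -2.28 for -470 kb in thymus, -1.89 for -470 kb in ES cells and -2.14 for -6 kb. For the promoter it was -0.19 (thymus), 0.02 (ES cells) and -0.50 (brain), and for +1.5 kb -0.46. With medians in place of means it was 0 for the promoter in ES cells and brain, for +1.5 kb and for -470 kb in ES cells. It was then -0.12 for the promoter in thymus, -2.05 for -470 kb in thymus and -2.25 for -6 kb. A power law of distance, fitted to each library outside the stretch, gives a fall too. A pseudocount of 10% of the library mean was used in both, and the ratio from that power law was taken from the observed log2 ratio. This difference was -0.66 and -0.65 for -470 kb in thymus and ES cells and -1.20 for -6 kb. The other 4 libraries lay between -0.12 and 0.37. The SD of 0.54 describes levels at promoter-side viewpoints, not these differences, and their spread between libraries was not measured. In the -470 kb library of ES cells the fall lay earlier, and against the last 50 kb of the desert alone the stretch was higher, by 0.23.

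The -470 kb viewpoint asks whether it meets the Kcnh8 end as often as the Satb1 side, since both sides are covered at 320 to 577 kb. The mirrored stretch, 51.843 to 52.100 Mb, holds the viewpoint of the Satb1 promoter. In thymus the Kcnh8 end averaged 0.0531 and the mirrored stretch 0.862, a log2 ratio of -4.02, or 16.2-fold lower. In ES cells it averaged 0.124 against 0.405, a log2 ratio of -1.70, or 3.26-fold lower. The Kcnh8 side was the lower one at 245 of 258 paired distances in thymus and at 194 in ES cells. The log2 ratio in thymus minus that in ES cells was -2.32, a comparison that needs no scaling between libraries.

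How that gap divides between the sides depends on the scale. Relative to the library mean, the Satb1 side was higher in thymus than in ES cells by 1.09 on the log2 scale, and the Kcnh8 end gave -1.23. With signal as deposited the Kcnh8 end gave -0.61, and with the desert as scale -0.89, and the part of the Satb1 side shifts to match. With 20 kb to either side of the promoter viewpoint left out, the ratios of the Kcnh8 end to the mirrored stretch were -3.82 in thymus and -1.68 in ES cells. In 50 kb steps of distance the thymus ratio lay between -4.79 and -2.96, and the ES ratio between -2.97 and -0.93. The negative sign held in every full step of both libraries.

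**Figure D4:**
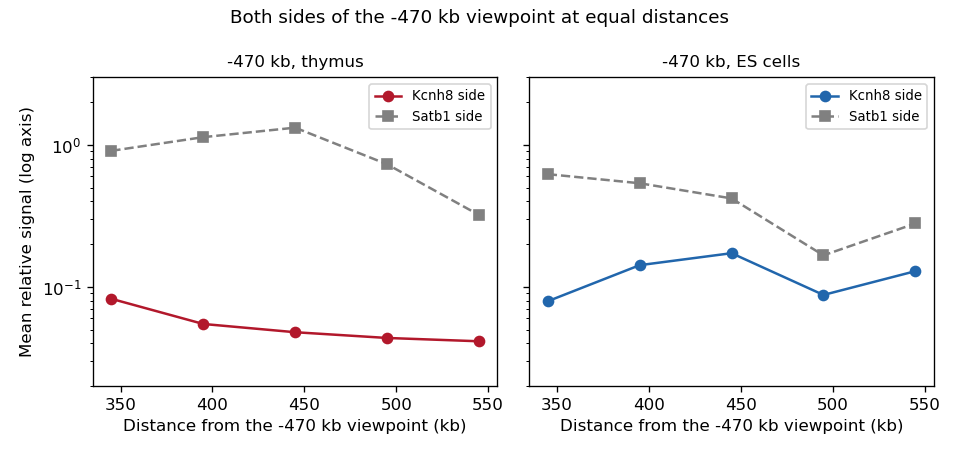
Mean relative signal (log axis) in 50 kb steps of distance from the -470 kb viewpoint, in kb, on the Kcnh8 side (circles) and on the Satb1 side (squares), in thymus (left) and ES cells (right). The Kcnh8 side is the lower one in all 5 steps of both libraries, and the gap is wider in thymus.

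Differences between tissues in the level of the Kcnh8 end were described for 4 pairs of libraries with the same viewpoint and enzymes. From -470 kb, thymus averaged 0.0531 and ES cells 0.124, a log2 difference of -1.23, beyond the SD of 0.54. That SD describes single levels at promoter-side viewpoints, so it is only a rough measure here. The difference kept its sign in all 13 other settings, between -1.62 and -0.61. The first 50 kb did not take part, with 0.0824 in thymus and 0.0792 in ES cells (log2 difference 0.06), and the difference was largest among full bins at 100 to 150 kb, with 0.0479 and 0.173 (-1.85). At single positions, thymus was more than 2-fold above ES cells at none of 258 positions, against 17.2% of positions over the locus. ES cells were more than 2-fold above thymus at 41 positions (15.9%), against 16.0% over the locus, so that share was no larger here than elsewhere. These calls carry a pseudocount of 10% of the library mean, which is close to the values of the stretch and shrinks their ratios. Without regard to size, thymus was the higher one at 17 positions (6.59%, against 43.8% over the locus) and ES cells at 236. In each library 68.6% of the positions held 1 of 2 recurring values, 0.0546 or 0.0637 in thymus and 0.0943 or 0.0743 in ES cells. The count therefore compares, in part, recurring values.

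From the promoter no direction was settled. Thymus averaged 0.152 and ES cells 0.0885, a log2 difference of 0.78, beyond the SD. It was smaller than the 0.89 and 0.98 by which the promoter library of thymus exceeded those of +1.5 kb and -6 kb. Scaled to the desert before the stretch instead of the whole library, thymus over ES cells gave -1.06, and divided by the extrapolated power law -0.83. With the +1.5 kb or the -6 kb thymus library in place of the promoter library it gave -0.10 or -0.20. Thymus averaged 0.152 and brain 0.171, a log2 difference of -0.16, within the SD. ES cells averaged 0.0885 and brain 0.171, a log2 difference of -0.95, which turned to 1.35 with the desert as scale and to 1.14 after division by the power law. These 3 differences share libraries with each other, and each compares the recurring values of flat stretches.

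At single positions, ES cells were the lowest of the promoter libraries nearly throughout the Kcnh8 end relative to the library mean. Thymus was above ES cells at 254 of 258 positions (98.4%, against 69.6% over the locus) and below at 4. The median log2 ratio with the pseudocount was 0.43 both here and over the locus. Thymus was above brain at 78 positions (30.2%, against 32.7%) and below at 178. ES cells were above brain at 2 (0.775%, against 22.9%) and below at 256, with a median of -0.60 both here and over the locus. In the stretch 94.6% of thymus, 84.1% of ES and 64.3% of brain positions held 1 recurring value. These counts and medians therefore mostly repeat 1 comparison of recurring values per pair, and the positions are not separate evidence. Flat levels as close to the pseudocount as these could hardly pass the 2-fold call, so the counts that follow do not show that the libraries were alike. Thymus was more than 2-fold above ES cells at 1 of 258 positions, against 17.1% over the locus, and ES cells above thymus at none, against 18.7%. Thymus and brain differed by more than 2-fold at none, against 10.0% with thymus higher and 35.5% with brain higher over the locus. ES cells were more than 2-fold above brain at none, against 4.71%, and brain above ES cells at 1, against 34.7%. The single positions were both 52740000, the first of the stretch, where relative signal was 0.152 (thymus), 0.00469 (ES cells) and 0.234 (brain).

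**Figure D5:**
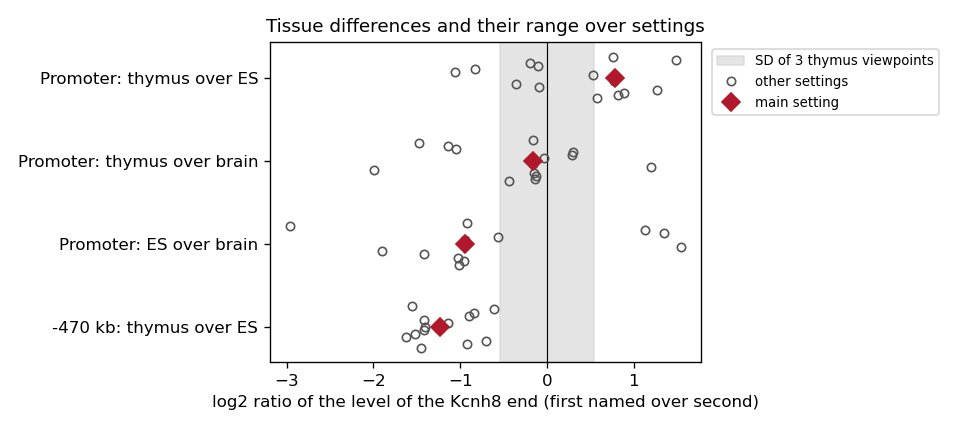
The log2 ratio of the level of the Kcnh8 end between tissues for the 4 pairs compared (first named over second), at the main setting (diamonds) and at every other setting tried (circles), with the SD of the 3 thymus viewpoints as a grey band. Only the -470 kb pair keeps its sign in all settings, and the 3 promoter pairs spread to both sides of 0.

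In the 3 libraries cut with DpnII and Csp6I, the named maxima lay 1.63-fold to 9.59-fold above the median of the stretch. The highest was at 52.872 Mb from -470 kb in ES cells, with a relative signal of 0.904 (lower value 0.0743, higher value 1.54), 9.59-fold above the median of the stretch. Smoothed over 2, 10 and 20 kb it read 1.72, 0.178 and 0.145. Thymus held 0.0637 at that position from the same viewpoint, a log2 difference of -2.62 with the pseudocount. The other maxima of the ES library, 52.977 Mb with 0.480 and 52.824 Mb with 0.448, were at the median of the stretch in the 10 kb and 20 kb windows. With the 2 kb window, 52.977 Mb read 0 and 52.824 Mb lay 1.27-fold above the median.

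Both named thymus maxima from -470 kb lay within 1 kb of one from -6 kb. From -6 kb the highest was 52.775 Mb with 0.291, followed by 52.755 Mb with 0.235 and 52.799 Mb with 0.205. From -470 kb they were 52.754 Mb with 0.249 and 52.775 Mb with 0.0889. The maximum at 52.775 Mb from -6 kb stayed 2.28-fold to 4.27-fold above the median of the stretch in all 4 windows, whereas from -470 kb it was at the median in the 10 kb and 20 kb windows. The maxima at 52.754 and 52.755 Mb read 0 with the 2 kb window in both libraries, and 1.67-fold (-470 kb) and 1.56-fold (-6 kb) above the median with the 10 kb window. Within 5 kb of 52.775 Mb, thymus averaged 0.0602 and ES cells 0.0495 from -470 kb, and thymus averaged 0.197 from -6 kb. From the promoter and from +1.5 kb, thymus was at the median of the stretch there. In ES cells, named positions from the promoter (52.823 Mb) and from -470 kb (52.824 Mb) also lay within 1 kb, though the first was 1 of many tied positions.

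In the 4 libraries cut first with NlaIII, the highest positions lay 1.18-fold to 2.09-fold above the median of the stretch. In thymus from the promoter, 52.747 and 52.928 Mb both had 0.230, 1.51-fold above the median of the stretch. They were named among 6 positions tied at that value, and both were at the median with the 10 kb window. In ES cells the highest value was 0.103, to which 38 of the 258 positions were tied. The naming rule took 52.745, 52.787 and 52.823 Mb from these ties, so they are not distinct peaks. Brain had 1 maximum, at the first position, with 0.234, and so had +1.5 kb, at 52.741 Mb with 0.180, which was 2.09-fold above the median and back at it with the 2 kb window. All of these were at the median of the stretch with the 10 kb window.

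Over the 258 positions, Spearman's rho between -470 kb and -6 kb in thymus was 0.566, and over the other 20 pairs of libraries it lay between -0.24 and 0.162. That pair shares tissue, enzymes and a decline along the stretch, and neighbouring positions share reads through the smoothing, so this is a description only. Thymus and ES cells from -470 kb, which share viewpoint and enzymes, had a rho of 0.115. In flat libraries a rho has little to order, since most positions are tied.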

How the data were processed

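Per the file names, the authors deposited a normalized signal, smoothed over 48 running windows in steps of 1000 bp, with 3 columns for each window. The files have no header, and the deposited signal of the 5 kb window (middle, higher and lower value) was used, with 2, 10 and 20 kb as alternatives. The genome build, per the submitters' processing notes, is mm9. Aligner, filters and read numbers: not given in the sources used here; without depth, values carry no counting interval. Over the locus 1.73% to 6.43% of positions beyond 10 kb were empty (under 1e-09).

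Viewpoints were placed at the highest signal (median over libraries of a viewpoint). The power law was fitted to log10 signal plus 10% of the library mean. Up to 3 maxima per library, at least 20 kb apart, highest within 10 kb and above percentile 75 of the stretch, were named, and up to 2 positions per direction and tissue pair, of which the text gives those that matter. Calls at single positions are beyond 2-fold with the pseudocount. Between full and diluted template of the Hba-a1 promoter, 325 positions had an SD of log2 ratio of 1.05. The members, lists and comparisons were chosen with earlier results of these data known. The computations, in Python 3.11.15 with numpy 2.4.6, were tested on simulated profiles.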

Additional observations from a re-analysis of the deposited data

Results flagged for a closer look

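The comparison of thymus with ES cells went opposite ways from the 2 viewpoints at which both were profiled. The level of the Kcnh8 end was higher in thymus from the Satb1 promoter, by 0.78 on the log2 scale, and lower in thymus from the -470 kb viewpoint, with -1.23. Each direction rests on 1 library per tissue, and the difference between them was not tested. The first of these values changed sign in 6 of 15 other settings and the second in none of 13. In the promoter libraries 94.6% of thymus positions and 84.1% of ES positions of the stretch held 1 recurring value, against 45.3% and 46.1% from -470 kb, and the part of this in the result was not tested.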

How the results depend on the processing

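Alternatives were compared with the reported values by the SD of 0.54 (log2) of the 3 thymus viewpoints, which itself came to 1.02 with the lower and 0.89 with the higher column, 1.49 with medians, 1.02 with the desert as scale and 0.0662 with +1.5 kb and -6 kb alone. Every library stayed under 1 in all settings, but how far below moved widely, most from the promoter in ES cells, at 0.847 with medians against 0.0885. Relative levels moved by more than the SD as follows. With medians in place of means they were 0.662, 0.847 and 0.289 from the promoter in thymus, ES cells and brain, 0.479 from +1.5 kb, and 0.109 and 0.291 from -470 kb in thymus and ES cells. With the desert as scale they were 0.395, 0.826 and 0.324 from the promoter, 0.125 from +1.5 kb and 0.0695 from -470 kb in ES cells. With the scale taken beyond 50 kb the promoter gave 0.240 (thymus) and 0.166 (ES cells). In the lower and higher column settings, each column was divided by its own library mean, not by that of the middle column as before. The lower column gave 0.236 (thymus) and 0.261 (brain) from the promoter, 0.147 from +1.5 kb and 0.0295 from -470 kb in thymus. The higher column gave 0.0477 (thymus) and 0.0509 (ES cells) from the promoter, 0.0452 from +1.5 kb, 0.134 from -6 kb, and 0.102 and 0.292 from -470 kb in thymus and ES cells.

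Thymus over ES cells from the promoter turned to -0.10 (higher column), -0.35 (medians), -1.06 (desert as scale), -0.83 (power law), -0.10 (+1.5 kb library) and -0.20 (-6 kb library). Thymus over brain was -2.0 with the higher column, 1.2 with medians, -1.05 with the +1.5 kb and -1.14 with the -6 kb library. ES cells over brain was -1.90 with the higher column and turned to 1.55 with medians, 1.35 with the desert as scale and 1.14 with the power law. Signal as deposited, added after the data were seen as was leaving out the first 50 kb, gave 1.49, -1.48 and -2.97 for these pairs and -0.61 for thymus over ES cells from -470 kb.

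Against the desert before it, the stretch gave with the higher column -2.36, -1.16 and -1.15 in thymus, ES cells and brain from the promoter, -2.29 from +1.5 kb and -0.85 from -470 kb in ES cells. Against 200 kb it gave -1.14 (thymus) and -1.59 (brain) from the promoter, -2.06 from +1.5 kb, -2.94 from -6 kb, and -3.85 and -2.97 from -470 kb in thymus and ES cells. From +1.5 kb the 2 kb window gave -1.02. From -470 kb in ES cells medians gave 0 and the 50 kb before turned it to 0.23. Against mirrored distances the lower and higher columns gave -4.56 and -3.18 in thymus, and the higher column -0.81 in ES cells, with the sign kept in all 10 settings of both. The causes of these changes were not tested.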
